A study of Fukomys damarensis and Heterocephalus glaber and Mus musculus with 160 samples.

Results

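The H3K27ac peak lists of Damaraland mole-rat (Fukomys damarensis) liver and heart were compared, 5 libraries of each tissue. These 10 samples were chosen by species, tissue and antibody as the sample titles give them, out of 160 samples in the series, 116 of which had a peak list. The series measured histone marks and transcription factors by chromatin immunoprecipitation and sequencing (ChIP-seq) in liver and heart of mole-rats, guinea pig and mouse. Chromatin bound by an antibody is recovered and sequenced, and places with more reads than the untreated chromatin of an input library are called as peaks.

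All animals were wild-type adults with no treatment named in the labels. Animals DMR1, DMR2, DMR3 and DMR4, all male, gave both tissues. DMR6, a female, gave liver only, and DMR11, a male, gave heart only. The labels estimate the age at 36 months for DMR2 and DMR3 and at 48 months for the other animals. Liver was perfused with buffer and blood clots were taken out of the heart before fixation. Whole tissue pieces were used, so a list pools all cell types of the organ, and more cells of a type cannot be told apart from more signal per cell. Library names start with do for liver DMR1, DMR2 and DMR4 and heart DMR2 and DMR4, and with vl for the other 5 libraries. These prefixes are treated as a library series.

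H3K27ac is acetylation of lysine 27 on histone H3. It is placed by the acetyltransferases p300 and CBP and is found at promoters in use and at active enhancers, the distal elements that raise transcription of a gene. Promoters in use also carry H3K4me3, while enhancers carry H3K4me1 and little H3K4me3. Enhancers differ between tissues far more than promoters do, because they are bound by factors made in a given cell type. CEBPA, FOXA1, HNF4A and HNF6 are factors of hepatocytes, RXRA is the partner of several nuclear receptors in liver, and TBX5 is a factor of the developing and adult heart.

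The strongest liver peaks stood further above input than the strongest heart peaks, while the number, width and total length of peaks did not differ beyond the spread between animals. The liver lists held 114466 peaks (DMR1), 93145 (DMR2), 84711 (DMR3), 110329 (DMR4) and 78131 (DMR6). The heart lists held 51446 (DMR1), 139112 (DMR2), 97772 (DMR3), 118481 (DMR4) and 87308 (DMR11). Both the shortest and the longest list were heart lists, and the liver values lay between them. The difference, liver minus heart, was 0.021 on the log2 scale (adjusted p = 0.952, two-sided exact permutation of the tissue label, Benjamini-Hochberg over 6 measures). Liver peaks covered 72.2 ± 13.0 Mb and heart peaks 66.9 ± 21.5 Mb (SD, n = 5 each). Their difference was 0.16 on the log2 scale (adjusted p = 0.771, same exact test).

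Peak width is the length between the called start and end. The median width was 391, 540, 439, 394 and 459 bases in liver DMR1, DMR2, DMR3, DMR4 and DMR6. It was 464, 342, 415, 461 and 439 bases in heart DMR1, DMR2, DMR3, DMR4 and DMR11. The tissues overlapped, with the widest median in liver DMR2 and the narrowest in heart DMR2, taken from 1 animal. The difference was 0.066 on the log2 scale (adjusted p = 0.771, exact permutation test). Peaks of at least 1 kb made up 20.3 ± 4.26% of the liver lists and 17.3 ± 2.53% of the heart lists (SD, n = 5 each), a difference of 3.05 percentage points (adjusted p = 0.429, exact permutation test).

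The fold is the authors' deposited ratio of a peak over background, a value of that peak in its own list. Its median was 5.84, 5.65, 6.85, 6.03 and 7.22 in liver DMR1, DMR2, DMR3, DMR4 and DMR6. It was 5.71, 5.598, 5.72, 4.94 and 5.46 in heart DMR1, DMR2, DMR3, DMR4 and DMR11. Only liver DMR2 lay within the heart range. The liver mean was higher by 0.20 on the log2 scale, which did not pass after adjustment (p = 0.0238, adjusted p = 0.0714, exact permutation test).

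The 99th percentile of fold, the level that the top hundredth of a list exceeds, was 42.5, 43.4, 39.8, 47.0 and 51.2 in liver DMR1, DMR2, DMR3, DMR4 and DMR6. It was 17.5, 36.0, 28.4, 20.8 and 23.0 in heart DMR1, DMR2, DMR3, DMR4 and DMR11. Every liver value lay above every heart value. The difference was 0.87 on the log2 scale (p = 0.00794, the smallest this design allows, adjusted p = 0.0476, exact permutation test). It was 0.75 to 1.01 with any 1 library left out, and the call was lost without liver DMR1, DMR3, DMR4 or DMR6 (adjusted p from 0.0714 to 0.0952). With the 4 animals that gave both tissues as pairs, the difference was 0.80, where the smallest p the exact test can give is 0.125. Compared within the library series it was 0.85 (adjusted p = 0.0300, exact permutation test).

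**Figure D1:**
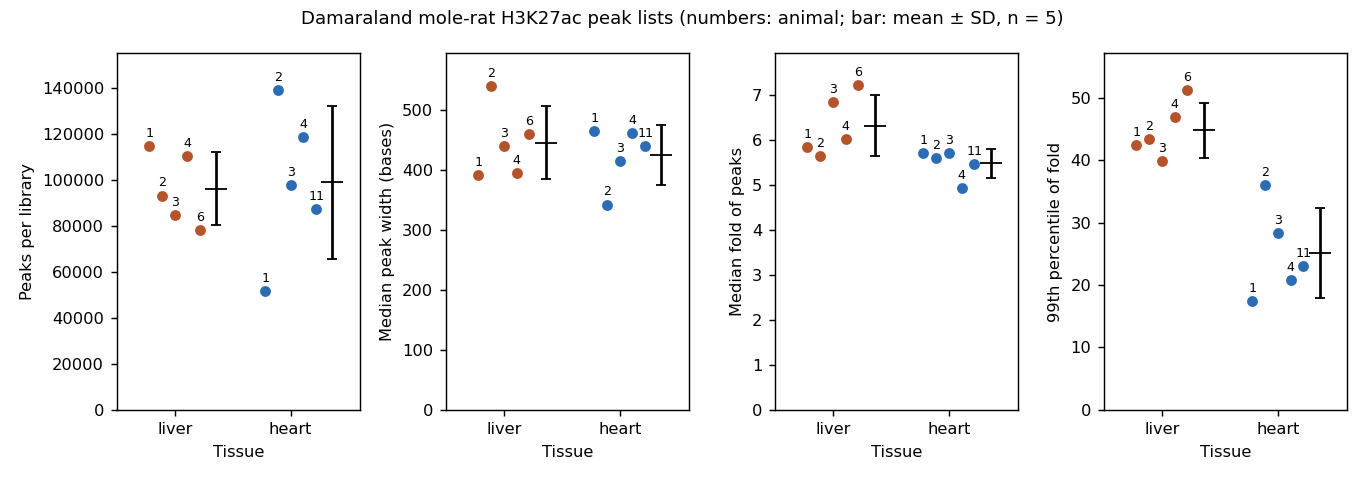
Each point is 1 library, labelled with the number of its animal, and the black bar is the mean ± SD of 5 libraries. The panels give the number of peaks, the median peak width in bases, the median fold and the 99th percentile of fold; the tissues overlap in the first 3 panels and not in the last, where liver spans 39.8 to 51.2 and heart 17.5 to 36.0.

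To compare positions, stretches of at least 100 bases covered by 2 or more libraries of a tissue were merged over the tissues. This gave 151343 regions. A library was said to have a region when 1 of its peaks overlapped at least 50% of the shorter of the pair. A region was of both tissues when at least 2 libraries of each had it, and of 1 tissue only when at least 2 libraries of that tissue and at most 1 of the other had it.

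By number, most H3K27ac regions were of 1 tissue under this rule. Regions of both tissues numbered 35238 (23.3%), liver-only regions 54330 (35.9%) and heart-only regions 61775 (40.8%). They differed in size: the median width was 1163 bases for regions of both tissues, 394 bases for liver-only and 327 bases for heart-only regions, and the 3 classes covered 61.3, 38.0 and 33.8 Mb. The class rule bears on these numbers and widths. A region of both tissues can join merged liver and heart stretches, and it needs more libraries than a one-tissue region. The part of this rule in the numbers and widths was not tested. Counted by peaks, liver lists had a mean of 46.0% at regions of both tissues and 43.2% at liver-only regions. Heart lists had 44.5% at regions of both tissues and 40.1% at heart-only regions. The 15031 regions found in all 10 libraries (9.93%) had a median width of 1714 bases.

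Regions with full support in one tissue and none in the other were more numerous for liver. Of all regions, 16181 were found in all 5 liver and no heart library, 10.7% of all regions. In the other direction 8558 were found in all 5 heart and no liver library, 5.65% of all regions. Heart DMR1, the shortest list, set the second number: without it 14601 regions were found in every heart and no liver library, and 16195 in every liver and no heart library. With each list reduced to its 51446 peaks of highest fold, the length of the shortest list, the numbers were 10292 for liver and 5486 for heart.

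Many one-tissue regions had thin support. Just 2 libraries of the own tissue held 34.4% of liver-only and 47.6% of heart-only regions. A single library of the opposite tissue reached 11.4% of liver-only regions (6177) and 10.7% of heart-only regions (6614). Of the former, 45.9% came from heart DMR2 and 32.6% from heart DMR4, the longest heart lists, and 0.874% from heart DMR1. Heart DMR1 had a peak at 57.1% of the regions of both tissues, and the other libraries at 80.2% (liver DMR3) to 96.0% (heart DMR2).

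**Figure D2:**
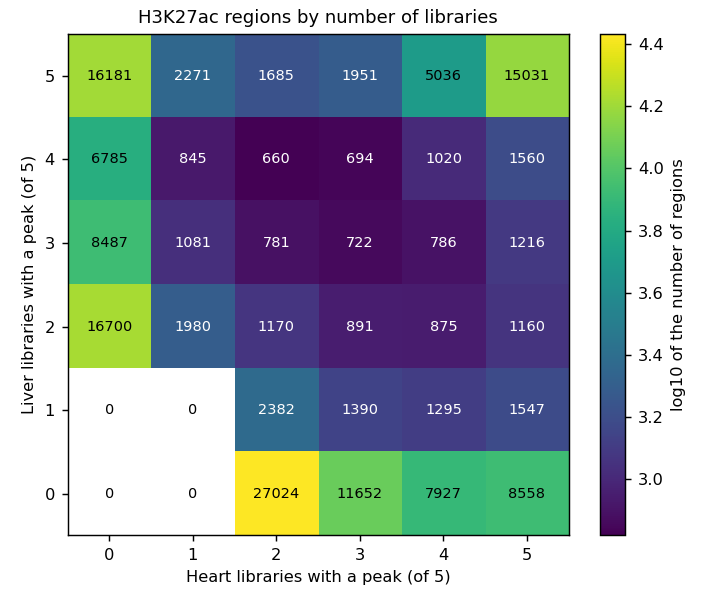
Each cell gives the number of H3K27ac regions that a given number of liver libraries (vertical axis, of 5) and heart libraries (horizontal axis, of 5) had, with colour on a log10 scale. The fullest cell is that of 2 heart and no liver libraries (27024), followed by 2 liver and no heart (16700), 5 liver and no heart (16181) and all 10 libraries (15031), with 8558 in all 5 heart and no liver library.

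Named regions were taken by rank of fold, a region's fold in a library being the highest among the peaks that overlap it. Positions are on the scaffolds of the build DMR_v1.0, counted from 1. No annotation of this build was used here, so the regions carry no gene names and no sequence.

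The highest-ranked region found in every liver and no heart library was KN123095.1:6642452-6646874, 4423 bases wide. Its fold was 65.7, 75.9, 49.1, 66.4 and 79.4 in liver DMR1, DMR2, DMR3, DMR4 and DMR6, with no peak in any heart library. H3K4me3 and H3K4me1 peaks of liver, but not of heart, lay on it, together with peaks of CEBPA, FOXA1, HNF4A and RXRA. The next, KN121576.1:966384-969512, had folds of 61.9, 66.2, 51.9, 62.4 and 73.3 in the same order, liver H3K4me3 and the same 4 factors. The third, KN123813.1:2030477-2033685, had folds of 53.6, 50.1, 51.1, 76.7 and 75.2, and peaks of all 5 liver factors. All of the 6 highest-ranked regions of this kind held liver H3K4me3, CEBPA, HNF4A and RXRA. One of them, KN122458.1:2596937-2609777, 12841 bases wide, also held heart H3K4me1 and a TBX5 peak.

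The highest-ranked region found in every heart and no liver library was KN125239.1:229009-231567, 2559 bases wide. Its fold was 28.2, 32.7, 25.6, 25.7 and 23.0 in heart DMR1, DMR2, DMR3, DMR4 and DMR11. It held H3K4me3 and H3K4me1 of heart, a TBX5 peak and no liver mark or factor. Folds at KN121439.1:331966-338436 were 17.3, 37.9, 28.2, 21.5 and 20.8 in the same order. All of the 6 highest-ranked regions of this kind held heart H3K4me3 and heart H3K4me1, and 4 of them held TBX5. Peaks of a liver factor lay on 4 of the 6, so a liver factor peak was not restricted to regions with liver H3K27ac. The largest of these folds were lower than those of the liver regions, as the 99th percentiles above were.

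The widest regions of one tissue were KN122459.1:4641076-4662037 for liver (20962 bases) and KN121537.1:2958714-2973134 for heart (14421 bases). The liver region had folds of 26.6, 53.2, 42.0, 37.4 and 55.0 in DMR1, DMR2, DMR3, DMR4 and DMR6, and held all 5 liver factors and a TBX5 peak. The heart region had folds of 16.4, 44.3, 30.5, 16.0 and 30.9 in DMR1, DMR2, DMR3, DMR4 and DMR11, and was also 1 of the 6 of highest rank among the regions of every heart and no liver library. The widest region of both tissues, KN122054.1:9168500-9195957, spanned 27458 bases, was found in all 10 libraries and held H3K4me3 and H3K4me1 of both tissues and all 6 factors.

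One-tissue regions lay beside others of the same tissue. The next region along the scaffold was of the same class for 71.7% of liver-only regions, which made up 35.9% of all regions. It was of the same class for 71.7% of heart-only regions, 40.8% of all regions, and for 43.0% of regions of both tissues, 23.3% of all. The median gap to a next region of the same class was 415 bases for liver-only and 523 bases for heart-only regions. Whether such neighbours were parts of 1 wider acetylated stretch was not tested. Runs of 10 or more consecutive regions of 1 class held 30.0% of the liver-only regions (1030 runs) and 31.2% of the heart-only regions (1187 runs). By number of regions, the longest liver run was KN123543.1:6496466-6758193, with 76 liver-only regions over 262 kb, 28 of them in all 5 liver libraries and 74 in no heart library. The next, KN122563.1:5265528-7149499, held 72 liver-only regions over 1884 kb. The heart run with the most regions was KN122922.1:5414085-5795839, with 103 heart-only regions over 382 kb, 20 of them in all 5 heart libraries and 102 in no liver library. These runs were picked after their lengths were seen.

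Regions of both tissues carried the promoter mark at a higher share than one-tissue regions did. H3K4me3 of either tissue lay on 55.2% of the regions of both tissues and on 75.1% of those found in all 10 libraries. It lay on 5.33% of liver-only and 8.86% of heart-only regions. The share was 8.66% for regions of all 5 liver and no heart library, and 14.6% for regions of all 5 heart and no liver library. For these shares a mark's region is one covered by at least 2 libraries of its tissue, and liver H3K4me3 had 2 libraries in all.

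H3K4me1, the enhancer mark, was found mainly in the tissue of the H3K27ac region. Among liver-only regions, 82.0% had liver H3K4me1 and 9.07% heart H3K4me1. Among heart-only regions, 43.4% had heart H3K4me1 and 18.8% liver H3K4me1. Neither H3K4me3 nor H3K4me1 of either tissue was found on 15.5% of liver-only and 46.3% of heart-only regions, against 5.29% of regions of both tissues. The H3K4me1 lists differed in length between the tissues, with 130602 to 165394 peaks in liver and 32893 to 158541 in heart, and the heart list of DMR11, the shortest, covered 10.1% of heart-only regions. The part of list length in the lower heart share was not tested.

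Within each class, regions with H3K4me3 stood higher in the fold ranking. A fold percentile here is the rank of a peak's fold within its library's list, averaged over the libraries of a tissue that have the region. For regions of both tissues the median liver percentile was 77.1 with H3K4me3 and 44.9 without, and the median heart percentile 78.3 and 54.9. Liver-only regions had a median liver percentile of 71.1 with H3K4me3 (2893 regions) and 42.9 without. Heart-only regions had a median heart percentile of 57.3 with it (5475 regions) and 43.3 without. Regions with H3K4me3 were also wider. Their median width was 1224 against 1075 bases for both tissues, 913 against 385 for liver-only and 465 against 316 for heart-only regions. The part of width in the ranking was not tested.

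Factors of the liver lay on liver-only regions more often than on heart-only regions, with 1 or 2 libraries per factor and so no test. CEBPA peaks of animal DMR4 lay on 25.1% of liver-only and 1.98% of heart-only regions, and those of DMR1 on 9.81% and 0.766%. RXRA peaks lay on 22.8% and 1.65% in DMR4, and on 9.58% and 0.826% in DMR1. FOXA1 peaks lay on 5.63% and 0.652% in DMR4, and on 7.04% and 0.423% in DMR1. HNF4A, measured in DMR4, lay on 13.6% and 2.34%, and HNF6, measured in DMR1, on 8.01% and 1.72%. In all 8 liver factor lists the share of liver-only regions was above that of heart-only regions.

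Regions of all 5 liver and no heart library held the factors more often still, for example CEBPA of DMR4 at 44.7% and RXRA of DMR4 at 45.5%. At regions found in all 10 libraries the same lists gave 35.3% and 53.3%. In every liver factor list the share at regions of both tissues was above that at liver-only regions. For regions of both tissues it was 27.2% for CEBPA and 38.1% for RXRA in DMR4, and 25.1% for HNF4A. Regions of all 5 liver and no heart library were set against those found in all 10. The first had the higher share for CEBPA and FOXA1 of both animals, HNF6, and RXRA of DMR1. The second had it for HNF4A and RXRA of DMR4. For CEBPA of DMR1 the shares were 20.45% and 15.02%, and for HNF4A 28.93% and 34.77%. Regions of both tissues were wider than liver-only regions (median 1163 against 394 bases), and the part of width was not tested. TBX5, measured in the heart of DMR6, lay on 6.97% of heart-only and 3.97% of liver-only regions. It lay on 20.2% of regions of all 5 heart and no liver library, 6.68% of regions of all 5 liver and no heart library and 13.4% of regions of both tissues. At regions found in all 10 libraries the TBX5 share was 19.6%, close to that of regions of all 5 heart and no liver library. Those shares are the only check of the tissue labels made here.

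**Figure D3:**
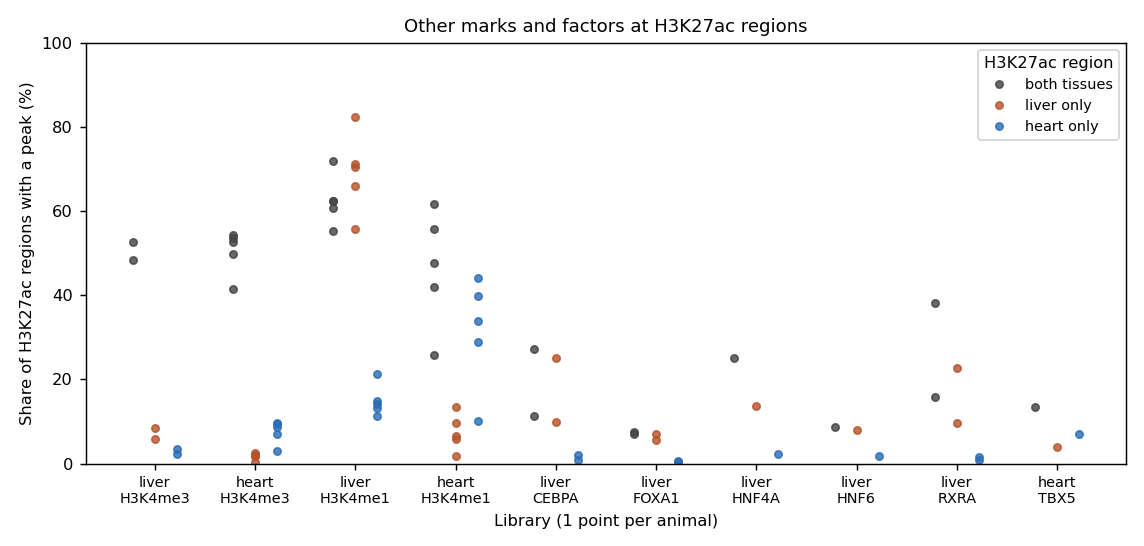
Each point is 1 library of a mark or factor, and its height is the share of H3K27ac regions (%) of both tissues, of liver only or of heart only on which that library had a peak. All 8 liver factor lists have a higher share at liver-only than at heart-only regions, and their highest share at regions of both tissues. For CEBPA of DMR4 the liver-only and heart-only shares are 25.1% and 1.98%, and for TBX5 they are 3.97% and 6.97%.

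Regions with more of the 5 factors ranked higher, at liver-only regions and at regions of both tissues. A factor was counted at a region when any of its lists had a peak there. Among liver-only regions the median liver fold percentile was 37.6 for the 30529 regions with no factor, 45.5 with 1, 57.2 with 2, 73.5 with 3, 83.8 with 4 and 90.03 with 5 (660 regions). Width moved with it, from a median of 298 bases with no factor to 3176 bases with 5, and the part of width in this order was not tested. At regions of both tissues the percentile rose from 44.95 with no factor to 94.81 with 5, and the median width from 765 to 4991 bases. Heart-only regions with a TBX5 peak (4304) had a median heart percentile of 57.6 and a median width of 750 bases. Those without one (57471) had 43.6 and 316 bases. Regions of both tissues had the same order, with a median heart percentile of 81.03 with a TBX5 peak and 67.64 without.

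The 2 tissues differed in what their strongest peaks were. In the top 10% of each list by fold, the share of peaks at regions of both tissues was 69.7%, 70.5%, 72.3%, 71.5% and 75.8% in liver DMR1, DMR2, DMR3, DMR4 and DMR6. It was 74.9%, 90.3%, 88.1%, 80.8% and 89.1% in heart DMR1, DMR2, DMR3, DMR4 and DMR11. The groups overlapped only through liver DMR6 and heart DMR1. The liver mean was lower by 12.7 percentage points (-12.7, p = 0.0159, adjusted p = 0.0476, two-sided exact permutation test, Benjamini-Hochberg over 3 shares). Correspondingly, liver-only regions held 28.0 ± 2.35% of the liver top 10% and heart-only regions 15.3 ± 6.58% of the heart top 10% (SD, n = 5 each).

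The difference in the top 10% lay between -15.5 and -11.6 percentage points with any 1 library left out, and its call was lost without liver DMR1, DMR2, DMR3 or DMR4 (adjusted p from 0.0714 to 0.0952). It was -12.5 within the library series (adjusted p = 0.0900) and -14.0 with lists of equal length (adjusted p = 0.143). Over whole lists the share at regions of both tissues was 46.0 ± 4.76% in liver and 44.5 ± 9.94% in heart (SD, n = 5 each), a difference of 1.54 percentage points (adjusted p = 0.841, exact permutation test). In the bottom 10% of the lists it was 34.4 ± 7.77% in liver and 32.5 ± 17.4% in heart (SD, n = 5 each; difference 1.85 percentage points, adjusted p = 0.841, exact permutation test). Heart DMR1 held the highest of these shares in the bottom 10%, at 62.8%.

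**Figure D4:**
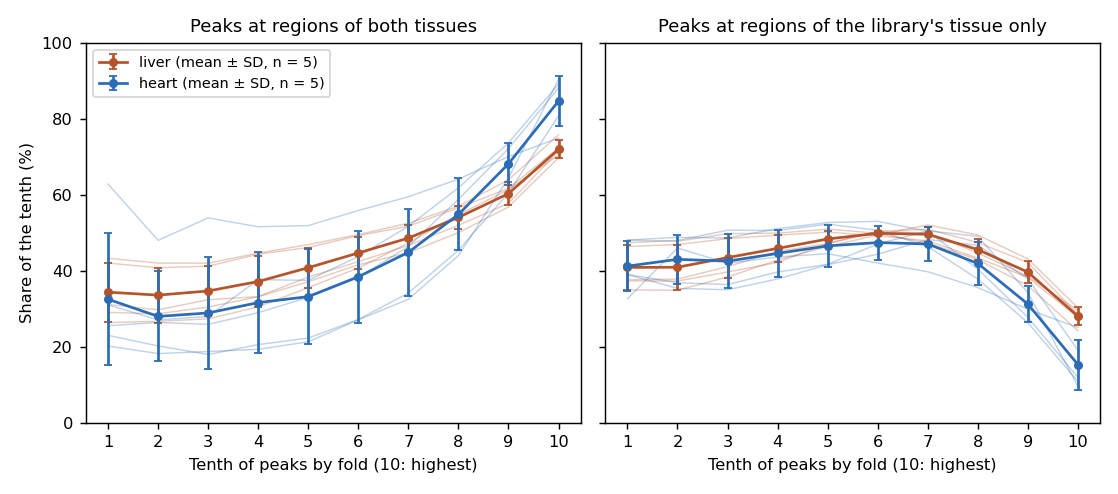
The peaks of each library were cut into 10 bins by the percentile of fold, of unequal size where folds tie (horizontal axis, 10 the highest), and the vertical axis is the share of each bin (%) at regions of both tissues (left) or of the library's own tissue only (right). Thin lines are libraries and points with bars are mean ± SD of 5; the left curves end at 72.0% for liver and 84.7% for heart, and the right curves at 28.0% and 15.3%.

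Within a library, peaks at regions of both tissues were wider than peaks at regions of the own tissue only. The log2 ratio of the median widths was 0.25, 0.50, 0.25, 0.28 and 0.29 in liver DMR1, DMR2, DMR3, DMR4 and DMR6. It was 0.31, 0.80, 0.62, 0.66 and 0.56 in heart DMR1, DMR2, DMR3, DMR4 and DMR11. All 10 values were above 0, and the exact sign-flip test over 5 libraries of a tissue gave p = 0.0625, the smallest it can give. The classes were made from these same lists, so a library's own peaks helped to set them. The mean ratio was 0.31 in liver and 0.59 in heart. With classes made without the measured animal it was 0.18 and 0.42, and with equal-length lists 0.14 and 0.34. Other parts of the class rule in these values were not tested. In bases, the median over libraries was 508 against 427 in liver and 587 against 396 in heart. The liver mean of the ratio was lower than the heart mean (-0.28, p = 0.0159, adjusted p = 0.0317, exact permutation test over 2 contrasts).

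Peaks at regions of both tissues also ranked higher by fold. The difference of mean fold percentile was 7.30, 10.4, 8.16, 7.96 and 9.21 percentage points in liver DMR1, DMR2, DMR3, DMR4 and DMR6. It was 5.87, 18.4, 18.6, 15.1 and 18.0 in heart DMR1, DMR2, DMR3, DMR4 and DMR11. Heart DMR1 lay below all liver libraries and the other 4 heart libraries above them. The liver mean was lower by 6.58 percentage points (-6.58, p = 0.0476, adjusted p = 0.0476, exact permutation test). Both calls were lost when any 1 library other than liver DMR2 or heart DMR1 was left out. Without heart DMR2 the differences were -0.16 and -4.90 (adjusted p = 0.119 each, exact permutation test). Within library series they were -0.31 and -6.83 (adjusted p = 0.0400 and 0.0600, exact permutation test). With classes made without the measured animal they were -0.24 and -6.40 (adjusted p = 0.0317 and 0.0397, exact permutation test). Such classes gave a mean fold percentile difference of 6.16 percentage points in liver and 12.6 in heart, against 8.61 and 15.2 with all animals.

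The 15031 regions found in all 10 libraries allow fold to be ranked over the same regions in every library. Within each library the ranks were turned into normal scores, which have a mean near 0 and a standard deviation near 1, and the scores were compared with limma. Ranks were higher in liver at 1490 regions, 9.91% of those tested, and higher in heart at 1721, 11.4% (limma, Benjamini-Hochberg adjusted p of at most 0.05). Before adjustment 5139 regions had p of at most 0.05. The median difference was 1.38 for the former and -1.37 for the latter, with a median SE of 0.36 in both.

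The split between the directions depends on the scale. With log2 of the deposited fold in place of the rank, 2863 regions were higher in liver and 802 in heart, so that 78.1% of calls were higher in liver, against 46.4% by rank. On that scale the median region was 0.34 higher in liver. Without heart DMR1, 19796 regions were tested and 2473 ranked higher in liver and 2393 in heart. All 5 liver ranks lay on one side of all 5 heart ranks at 14.9% of the regions tested, and at 920 of the 1490 and 1081 of the 1721 called regions.

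The region with the largest difference towards liver was KN123586.1:122790-141494, 18705 bases wide. Its fold was 62.4, 63.9, 67.3, 67.3 and 53.8 in liver DMR1, DMR2, DMR3, DMR4 and DMR6, and 2.36, 10.3, 9.35, 5.81 and 5.58 in heart DMR1, DMR2, DMR3, DMR4 and DMR11. The lowest liver fold was thus far above the highest heart fold. The score difference was 4.03 ± 0.40 (SE; limma adjusted p = 1.864e-06), and all 5 liver factors had peaks there. The largest difference towards heart lay on the same scaffold, at KN123586.1:2489233-2493429, where the fold was 5.06, 4.13, 5.39, 6.02 and 7.78 in liver and 29.3, 49.8, 42.2, 18.8 and 30.4 in heart, in the same order of animals. The score difference was -3.71 ± 0.37 (SE; limma adjusted p = 1.864e-06), and heart H3K4me3 and TBX5 had peaks there.

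Of all regions tested, the tissues did not overlap at 14.9%. They did not overlap at any of the 10 regions with the largest differences, 5 in each direction. These 10 were picked by that difference, so the count adds no support. CEBPA and RXRA each had peaks at all 5 regions ranked higher in liver and at 1 of the 5 ranked higher in heart. TBX5 had peaks at 3 of the 5 ranked higher in heart and at 1 of the 5 ranked higher in liver. By contrast, the region with the highest rank over all 10 libraries, KN122596.1:2831619-2832292, was 674 bases wide. Its fold was 116, 75.0, 77.5, 47.4 and 65.5 in liver and 30.0, 88.0, 60.5, 33.4 and 55.7 in heart. Its ranks were not called different (score difference -0.49 ± 0.40, SE; limma adjusted p = 0.421), and H3K4me3 of both tissues lay on it.

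For the liver factor shares below, a peak of DMR1 or DMR4 counted where a factor had lists of both, as CEBPA, FOXA1 and RXRA did. These shares are not comparable with the single-list shares above. Regions ranked higher in liver held the liver factors more often than the others. CEBPA lay on 70.2% of them, on 20.5% of those ranked higher in heart and on 35.4% of those not called. RXRA lay on 85.2%, 33.7% and 54.5%, HNF4A on 63.1%, 23.4% and 32.9%, FOXA1 on 37.2%, 7.55% and 12.5%, and HNF6 on 21.1%, 9.12% and 10.3%. TBX5 lay on 23.4% of those ranked higher in liver, 28.6% of those ranked higher in heart and 17.8% of those not called. Liver H3K4me3 lay on 69.0%, 43.6% and 70.9% of the same groups, and heart H3K4me3 on 62.7%, 65.4% and 76.3%. Liver H3K4me3 had its lowest share at the regions ranked higher in heart. Heart H3K4me3 had close shares in both called groups, 62.7% and 65.4%, each below the 76.3% of those not called. The called regions were wider, with medians of 2717 and 2754 bases against 1564 bases for those not called. These shares are descriptions, since regions are not replicates.

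**Figure D5:**
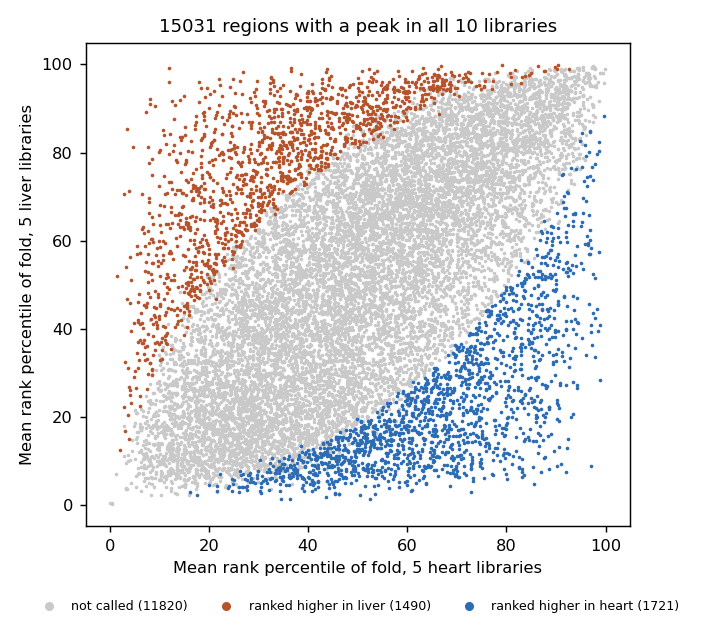
Each point is 1 of 15031 regions with a peak in all 10 libraries, placed by its mean rank percentile of fold over 5 heart libraries (horizontal axis) and 5 liver libraries (vertical axis). The 1490 regions ranked higher in liver by limma are in red-brown and the 1721 ranked higher in heart in blue, on either side of the regions not called.

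Liver libraries ranked the regions alike, and heart libraries less so. Over the 15031 regions, Spearman's rho between the folds of pairs of liver libraries was 0.756 to 0.814 (mean 0.781 over 10 pairs). It was 0.308 to 0.659 between heart libraries (mean 0.482 over 10 pairs) and 0.025 to 0.471 between tissues (mean 0.338 over 25 pairs). The heart and between-tissue ranges overlapped through heart DMR1, whose pairs gave 0.308 to 0.424 with the other heart libraries and 0.025 to 0.046 with the liver libraries. Without it, heart pairs gave 0.478 to 0.659 and between-tissue pairs 0.3345 to 0.471, which do not overlap. Liver and heart of 1 animal gave a mean of 0.314 over 4 pairs, no higher than the 0.343 of other animals over 21 pairs. These are correlations across regions, which share libraries and are not independent. Pairs of 1 tissue exceeded pairs of different tissues by 0.294 (p = 0.00794, one-sided exact permutation of the tissue label, adjusted p = 0.00794).

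A summit is the base of highest signal in a peak. Where a library had several peaks in a region, the summit of the peak with the highest fold was used. Summits of 1 region lay a mean of 64.7 bases apart between liver libraries, 87.2 bases between heart libraries and 96.2 bases between tissues, as means over pairs of the median distance. By pair the distances were 52 to 76, 68 to 104 and 72 to 122 bases, so heart pairs and between-tissue pairs overlapped. Pairs of different tissues exceeded pairs of 1 tissue by 20.2 bases (p = 0.00794, one-sided exact permutation test). In regions with exactly 1 peak in each library the excess was 3.79 bases (p = 0.0238, same exact test). The median gap between the middle liver and the middle heart summit was 52 bases, and 64.8% of regions had a gap of at most 100 bases. The 5 liver summits of a region spanned a median of 221 bases and the 5 heart summits 337 bases. A gap of at least 1000 bases was found at 1125 regions (7.49%), whose median width was 5075 bases. Liver and heart summits did not interleave at 402 of these 1125 regions, and at 956 (6.36%) of all 15031.

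The tissue difference in peak form was set beside that of the other species. Median widths, as log2 of liver over heart, differed by 0.066 in the Damaraland mole-rat, -0.24 for naked mole-rat, 0.36 for guinea pig and 0.32 for mouse. Median folds differed by 0.20, 0.16, -0.17 and 0.19 in the same order. None of the 6 comparisons of the Damaraland mole-rat with another species passed (exact permutation of species labels within tissue, adjusted p from 0.0823 to 0.906). The smallest adjusted p was for fold against the guinea pig, where the tissue effects differed by 0.37 on the log2 scale (p = 0.0137, exact permutation test). Each species has its own assembly, and 3 to 6 libraries a tissue entered for the others, all from wild-type adult males. The naked mole-rats were 13 to 17 months old, the guinea pigs 2.3 months and the mice, of strain C57BL/6J, 2 months, so age and species cannot be told apart. The title of 1 mouse heart library names 3 animals, and it was counted as 1 library.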

How the data were processed

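The authors deposited 1 list per library, made against 1 input library per the file names, and MACS2 is named in the submitters' processing notes. No source used here gives its version or the aligner. The deposited fold is a linear ratio over background. Deposited −log10 values of p and q come from the caller, and the lowest −log10 q in the 10 lists was 1.302. The score column is as deposited and was not used in a test. Read depth is unknown, so no interval on depth is given.

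Everything else was computed here with Python 3.11.15, NumPy 2.4.6, pandas 2.3.3, SciPy 1.17.1, R 4.3.3 and limma 3.58.1, with plots by Matplotlib 3.10.9. Regions, classes and tests are as given with the results, and the code was tested on simulated data. The factor and mark lists of the same species were overlapped with the regions by the same 50% rule. The heart H3K4me1 list of DMR1 carries a tag in its name that the labels do not explain. Regions named were the 6 of highest rank found in every liver, every heart or all 10 libraries, the 5 of largest difference in each direction and the 3 widest of each class, except the runs. The members and lists were chosen with earlier results of these data known. Tissues were paired by animal from the labels (4 animals). Correlations of same-animal deviations at regions of all 10 libraries were between -0.0057 and 0.0271. Alternatives left out each library, paired animals, compared within library series, raised the −log10 q to 4, equalised list length, used only scaffolds reaching 1 Mb, and changed overlap, consensus, scale and required libraries. One, with no minimum stretch length, was chosen after seeing the data.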

Additional observations from a re-analysis of the deposited data

Results flagged for a closer look

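In 22 groups of 5 libraries a library standing apart was looked for, which chance finds in about 1 of 20 groups. In liver, the log2 width ratio of peaks at both-tissue against liver-only regions was 0.498 in DMR2, away from 0.245 to 0.289 in the other 4 libraries. This library also had the widest median peak. In heart, the share of the bottom 10% by fold at regions of both tissues was 62.8% in DMR1, away from 20.2% to 31.0% in the others. The fold percentile difference of heart DMR1 was 5.87 percentage points, away from 15.1 to 18.6 in the others. Heart DMR1 had the shortest list, and the part of list length in these values was not tested.

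The contrast of both-tissue with one-tissue peaks differed between the tissues by permutation of the tissue label. For width the liver minus heart difference was -0.278 on the log2 scale (adjusted p = 0.0317, exact permutation test). For fold percentile it was -6.58 percentage points (adjusted p = 0.0476, exact permutation test).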

How the results depend on the processing

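The median fold, its 99th percentile, the top-10% share, the summit and rank separations, the 4 within-library contrasts and their 2 differences between tissues kept their direction under every alternative run. Pairing by animal (replicate block) has a smallest exact p of 0.125. It gave 0.803 for the 99th percentile of fold, -12.54 for the top-10% share, -0.747 (opposite sign) for the bottom-10% share, -0.281 and -6.03 for the width and fold percentile contrasts between tissues, 20.54 bases and 0.297 for the separations, and 1187 and 1330 limma calls. Within library series the number of peaks (-0.0922) and the fold effect against the mouse (-0.0355) turned sign, the top-10% share (-12.5) and fold percentile contrast (-6.83, adjusted p = 0.0600) no longer passed, and the median fold (0.237, adjusted p = 0.0300) passed. At a −log10 q of at least 4, the share (-0.894) and bottom-10% share (-4.15) turned sign, the contrasts were -0.217 and -5.49 (adjusted p = 0.111 each), and the fold effect against the guinea pig passed (0.418, adjusted p = 0.0364). With equal-length lists the median fold passed (0.446), the width effect against the mouse (0.0722) and the share (-0.239) turned sign, the top-10% share (-14.02) and the fold percentile contrast (-7.02) did not pass, regions numbered 22334 of both tissues, 30942 liver only, 32116 heart only, 9903 in all libraries, 10292 in every liver and 5486 in every heart library, and limma called 850 and 935. A consensus of 3 libraries gave -0.170 for the bottom-10% share. The log2 fold gave 2863 and 802 limma calls, and 4 of 5 libraries per tissue gave 2744 and 2797 of 22647 regions. The cause of these changes was not tested, except that equal-length lists and other required libraries change how many regions enter.

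Leaving out 1 library gave -0.195 to 0.163 for the number of peaks, -0.0566 to 0.292 for bases covered, -0.00935 to 0.110 for width, 0.150 to 0.239 for median fold, and 0.754 to 1.01 for its 99th percentile. It gave -0.00662 to 0.0820 and -0.0361 to 0.0526 for the fold effects against naked mole-rat and mouse, -1.75 to 5.46 for the share, -15.51 to -11.59 and -1.94 to 9.59 for the top and bottom 10%, -0.391 to -0.157 and -8.87 to -4.90 for the contrasts between tissues, 8661 to 14601 regions of every heart and no liver library, and 1157 to 2473 limma calls for liver. The contrasts between tissues passed only without liver DMR2 or heart DMR1; the median fold passed without liver DMR2 (adjusted p = 0.0476). No paired values exist for the single-tissue contrasts or for the mouse. Peak lists carry no depth, so a region missing from a list may be below its threshold.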
